A study of Schizosaccharomyces pombe with 24 samples.

Results

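Flocculins are glycoproteins of the fungal cell surface that let cells stick to each other and to solid ground. In fission yeast (Schizosaccharomyces pombe) they include Gsf2, which carries most of the cell to cell adhesion of flocculating strains, and the Pfl proteins, and their genes are known to be held low in growing cells and to be switched on by dedicated activators. Of the 6 flocculin genes considered here (gsf2, pfl2, pfl3, pfl5, pfl7 and pfl8), the members were taken as the genes with a probe set named in the platform annotation, each by its brightest probe set. By that rule 1 of 6 was found, pfl8, among 4981 features measured over the whole series. The other members, gsf2, pfl2, pfl3, pfl5 and pfl7, had no probe set named in the tables used and were not analysed here, and neither were the further flocculin genes pfl4, pfl6 and pfl9. This is a limit of the names used here, since 2082 of the features had none. The study's own lists of changed genes hold the locus tags of pfl3 and pfl7, both as lower in Δgcn5 Δmst2, where pfl8 was lower too. In other strains their changes can differ from those of pfl8. The results that follow are therefore about 1 flocculin gene. The platform lists its probe set under the older name fta5, and the gene identifier of that entry is that of pfl8, with the locus tag SPAC1F8.06, in RefSeq. Under that tag or as fta5, the study's lists already hold pfl8 as lower in Δgcn5, Δmst2 and Δgcn5 Δmst2, by the study's own thresholds.

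The study compared strains that lacked or had weakened histone acetyltransferases (HATs), enzymes that place acetyl groups on histones, by hybridising RNA to Affymetrix GeneChip Yeast Genome 2.0 arrays. There were 24 arrays in 9 groups: Δgcn5, Δmst2, mst1-ts, Δgcn5 Δmst2, Δelp3, Δmst2 Δelp3 and wild type with 3 arrays each, Δgcn5 Δelp3 with 2, and the triple mutant Δgcn5 Δelp3 Δmst2 with 1. Gcn5 is the HAT of the SAGA complex, Elp3 that of Elongator, and Mst1 and Mst2 belong to the MYST family. All cultures were asynchronous and the labels give growth at 30 °C, the semi-permissive temperature for mst1-ts, an allele of an essential gene. In the strain list of the study, mst2 was replaced with ura4+ in every strain that lacks it, and gcn5 and elp3 with a kanamycin resistance gene. In the mst1-ts strain mst1 was likewise deleted, and the cells lived on an nmt-mst1 construct inserted at leu1. Apart from that leu1+ insertion and the ura4+ replacements, the strains shared leu1-32, ura4-D18 and an ade6 mutation. The Δgcn5 and Δgcn5 Δmst2 strains also carried his3-D1, and wild type can1-1. The Δgcn5 strain was of mating type h- and the other strains, wild type included, of h+. The methods state that the replicates were independent isolates. The titles of the mst1-ts arrays name mst2, while their genotype and source labels name mst1.

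The deleted genes checked the labels. The elp3 transcript was at 5.93 to 6.98 in all 9 libraries of strains lacking elp3, against 11.47 to 12.02 in wild type, and gcn5 and mst2 were at most 5.53 in the double and triple mutants that lack them. In mst1-ts the mst1 transcript, carried by the construct, was at 11.38 to 11.94, against 10.09 to 10.58 in wild type, which does not check a temperature-sensitive allele. Some libraries went against their labels. The library labelled Δgcn5 replicate 2 had the gcn5 transcript at 10.93 on the log2 scale and mst2 at 5.21, whereas Δgcn5 replicates 1 and 3 had gcn5 at 5.37 and 5.72. The library labelled Δmst2 replicate 2 had mst2 at 10.01 and gcn5 at 5.43, whereas Δmst2 replicates 1 and 3 had mst2 at 5.18 and 5.28. The ura4 and his3 transcripts were at 13.30 and 13.69 in the library labelled Δgcn5 replicate 2. They were at 7.18 and 5.90 in that labelled Δmst2 replicate 2. Each of these 2 libraries thus carried the markers of the other strain. In wild type, ura4 stood at 7.40 and 7.45 in replicates 1 and 3 but at 12.85 in the library labelled replicate 2, whose mst2 transcript (8.73) was also lower than theirs (9.89 and 10.13). No library was moved to another group. All results below are given with the labels as they stand, and where it matters also without those libraries. By the labels, 14 arrays belong to one experiment date and 10 to a later one. All strains lacking elp3 were on the later date, and wild type, Δgcn5, Δmst2 and mst1-ts on the earlier. Only Δgcn5 Δmst2 was on both dates, with replicate 3 on the later. All comparisons with wild type share its 3 libraries. Correlations between replicates ran from 0.918 (Δmst2) to 0.997 (Δgcn5 Δelp3).

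Levels of pfl8 are log2 intensities, so that a difference of 1 is a doubling. In strains that kept elp3, the level was below wild type. It was 8.50, 8.07 and 7.59 in Δgcn5 Δmst2, 8.78, 8.13 and 9.01 in Δmst2, 9.40, 9.12 and 9.06 in mst1-ts and 9.51, 9.52 and 8.65 in Δgcn5, against 10.91, 9.80 and 9.94 in wild type. Every one of these mutant libraries lay below the lowest wild-type library, and the lowest of all was Δgcn5 Δmst2 replicate 3. In strains without elp3 the level was near or above wild type. It was 11.51 and 11.03 in Δgcn5 Δelp3, 11.01, 10.49 and 10.87 in Δelp3, 10.03, 9.90 and 9.77 in Δmst2 Δelp3 and 9.95 in Δgcn5 Δelp3 Δmst2. Both Δgcn5 Δelp3 libraries lay above the highest wild-type library, while Δelp3, Δmst2 Δelp3 and the triple mutant overlapped the wild-type range. In the plot of pfl8 by array these relations can be read directly.

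**Figure D1:**
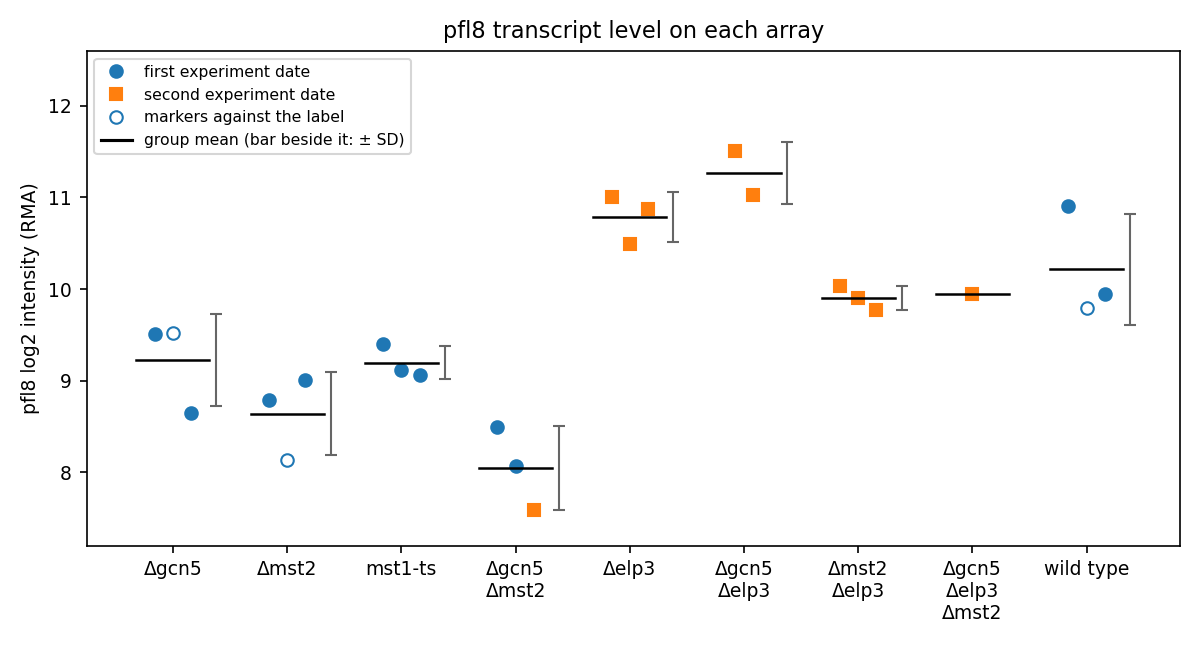
Log2 intensity of pfl8 (vertical axis) on each array of the 8 mutant strains and, at the right, wild type (horizontal axis), with group means as lines, ± SD bars beside them and the 2 experiment dates as circles and squares. The 4 mutants that kept elp3 lie below the lowest wild-type array at 9.80, and both Δgcn5 Δelp3 arrays lie above the highest at 10.91; open symbols are the libraries whose markers went against their labels.

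Mean levels were ordered from Δgcn5 Δmst2 (8.05 ± 0.46, SD, n = 3) through Δmst2 (8.64 ± 0.45, n = 3), mst1-ts (9.20 ± 0.18, n = 3), Δgcn5 (9.22 ± 0.50, n = 3), Δmst2 Δelp3 (9.90 ± 0.13, n = 3), the triple mutant (9.95, n = 1), wild type (10.22 ± 0.61, n = 3) and Δelp3 (10.79 ± 0.27, n = 3) to Δgcn5 Δelp3 (11.27 ± 0.34, n = 2). The means of Δgcn5 and Δmst2 follow the labels, and each holds a library with the markers of the other strain. Their order therefore depends on the labels. Most neighbours in this order of 9 groups could not be separated. The 95% interval of the difference held 0 for every neighbouring pair but Δmst2 Δelp3 and Δgcn5, where it ran from 0.03 to 1.32 log2 units. The 2 strains of that pair were on different dates, and the intervals were not adjusted for the number of pairs. By SD, wild type was the most spread of the 8 groups with more than 1 array and Δmst2 Δelp3 the least.

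The first question was how the loss of each HAT changed pfl8. Each change below is a log2 fold change from limma with its standard error, and its p was adjusted by the Benjamini-Hochberg method over all 4981 features. Rose and fell refer to an adjusted p under 0.05. The largest fall was in Δgcn5 Δmst2, which lacks both the SAGA acetyltransferase and Mst2. There pfl8 fell by 2.17 ± 0.31 (adjusted p = 8.4e-05), a 4.49-fold lower level, in a comparison where 11.3% of all features fell. This was a larger change in size than that of 98.5% of features, and of the 8 pfl8 differences from wild type it was the only one that also passed a 13/4-fold threshold. Titles of the study's supplementary files give that cutoff as a fold, whereas its text gives the same figure as a log2 fold, which no pfl8 change reached. The fall in Δgcn5 Δmst2 kept its call under all 37 alternatives run, between -2.39 and -1.82.

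In Δmst2, pfl8 fell by 1.57 ± 0.31 (adjusted p = 0.0430), a 2.98-fold lower level, where 0.161% of features fell, 8 in all. The group held a library with an mst2 transcript, and no share of all features is given without it. Over 37 alternatives the change ran from -1.78 to -1.13, and the call was kept in 14 of them. With the library labelled Δmst2 replicate 2 and that labelled Δgcn5 replicate 2 left out it was -1.32 (adjusted p = 0.0581), and without wild-type replicate 2 as well it was -1.53 (adjusted p = 0.0456). Among single libraries left out, wild-type replicate 1 gave -1.23 (adjusted p = 0.141), wild-type replicate 3 gave -1.71 (0.0559), Δmst2 replicate 1 gave -1.65 (0.117) and Δmst2 replicate 2 gave -1.32 (0.0733). The adjusted p was also above 0.05, with the change at -1.57, when any 1 library of mst1-ts, Δelp3, Δgcn5 Δelp3 or Δmst2 Δelp3, or Δgcn5 Δmst2 replicate 2, was left out, and then ran from 0.0541 to 0.0734.

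In mst1-ts, whose essential MYST acetyltransferase was weakened rather than absent, pfl8 fell by 1.02 ± 0.31 (adjusted p = 0.0150), a 2.03-fold lower level. Here 21.8% of all features fell and 13.7% rose, so that a fall of this kind was common in the strain. The call was lost without wild-type replicate 1, the brightest wild-type library, when the change was -0.67 (adjusted p = 0.106).

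In Δgcn5 the change was -0.99 ± 0.31, a 1.99-fold lower level, and it did not pass (adjusted p = 0.509). In that comparison, whose Δgcn5 group held a library with a gcn5 transcript, 0.120% of features fell. There limma called no rise in any feature, while 169 were higher at an unadjusted p under 0.05. All 3 Δgcn5 libraries lay below wild type. With the library labelled Δmst2 replicate 2 and that labelled Δgcn5 replicate 2 left out the change was -1.14 (adjusted p = 0.0447), and without wild-type replicate 2 as well the change was -1.35 (adjusted p = 0.0328). The pfl8 call was thus made once the doubted libraries were set aside, but no share of all features is given for these settings. Without wild-type replicate 1 the pfl8 change was -0.64 (adjusted p = 0.955).

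In strains lacking elp3, the catalytic subunit of Elongator, pfl8 did not fall below wild type by the test. In Δelp3 it was higher by 0.57 ± 0.31 (adjusted p = 0.193), where 13.0% of features rose and 8.49% fell. In Δgcn5 Δelp3 it rose by 1.05 ± 0.34 (adjusted p = 0.0356), a 2.07-fold higher level, where 12.5% of features rose and 9.01% fell. In Δmst2 Δelp3 the change was -0.32 ± 0.31 (adjusted p = 0.489), with 12.7% of features rising and 9.19% falling, and in the triple mutant it was -0.27 ± 0.43 (adjusted p = 0.752), with 6.36% rising and 5.40% falling. The triple mutant has 1 array, and its error was taken from the spread within the other strains. The intervals of the last 2 changes, -0.96 to 0.33 and -1.17 to 0.64, leave room for a rise or a fall.

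The pfl8 values of the elp3 strains and of wild type were from different dates, and the 1 group on both dates, Δgcn5 Δmst2, was at 7.59 on the later and at 8.50 and 8.07 on the earlier. With the date as a covariate, which rests on that group alone, the change was 1.27 in Δelp3 (adjusted p = 0.231), 1.75 in Δgcn5 Δelp3 (adjusted p = 0.105), 0.38 in Δmst2 Δelp3 (adjusted p = 0.753) and 0.43 in the triple mutant (adjusted p = 0.791). The sign of the last 2 was therefore turned. The call in Δgcn5 Δelp3 was also lost without wild-type replicate 2 (0.84, adjusted p = 0.121), wild-type replicate 3 (0.92, adjusted p = 0.101), Δgcn5 Δelp3 replicate 1 (0.82, adjusted p = 0.284) or Δgcn5 Δelp3 replicate 2 (1.29, adjusted p = 0.0774). In Δelp3, leaving out wild-type replicate 1 gave 0.92 (adjusted p = 0.0413). Without that library the change was 0.03 in Δmst2 Δelp3 and 0.08 in the triple mutant, with adjusted p of 0.962 and 0.929.

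The double and triple mutants were next set against the single mutants. In Δgcn5 Δmst2, pfl8 fell by 1.17 ± 0.31 relative to Δgcn5 (adjusted p = 0.0246), where 2.83% of features fell, and its 3 libraries lay below all 3 Δgcn5 libraries. Against Δmst2 the change was -0.59 ± 0.31 (adjusted p = 0.151), where 13.2% of features fell, and the libraries overlapped. These comparisons hold the doubted libraries. Without them the change was -1.03 against Δgcn5 (adjusted p = 0.0638) and -0.85 against Δmst2 (adjusted p = 0.0426), so each call turned to the other side of the threshold. Of the single libraries, the call against Δgcn5 was lost without Δgcn5 replicate 1 (-1.03, adjusted p = 0.105), Δgcn5 replicate 2 (-1.03, adjusted p = 0.102), Δgcn5 Δmst2 replicate 2 (-1.18, adjusted p = 0.0677) or Δgcn5 Δmst2 replicate 3 (-0.94, adjusted p = 0.130), and the call against Δmst2 was made without Δmst2 replicate 2 (-0.85, adjusted p = 0.0440).

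The strains without elp3 shared a date, so the comparisons among them do not cross dates. Δmst2 Δelp3 had pfl8 at -0.89 ± 0.31 relative to Δelp3 (adjusted p = 0.411), where 0.602% of features fell, and its 3 libraries lay below all 3 Δelp3 libraries. Fitted with the arrays of the later date only, the same change had an adjusted p of 0.0343. The triple mutant was at -0.84 ± 0.43 relative to Δelp3 (adjusted p = 0.249), where 5.20% of features fell, and with the arrays of the later date only at an adjusted p of 0.0293. Δgcn5 Δelp3 was higher than Δelp3 by 0.48 ± 0.34 (adjusted p = 0.809), where 0.502% of features rose, with both libraries above all 3 of Δelp3. By their means, pfl8 was lower on loss of mst2 both with and without elp3. On loss of gcn5 it was lower with elp3, and it was higher in Δgcn5 Δelp3 than in Δelp3. The triple mutant, with 1 array, was 0.05 above Δmst2 Δelp3, which kept gcn5.

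Interaction terms test such differences directly, as what a double mutant shows beyond adding up its single-mutant changes. The term for gcn5 and elp3 was 1.47 ± 0.46 (95% interval 0.51 to 2.44), which did not pass (adjusted p = 0.490), where 0.201% of features had a positive term past the threshold. That for mst2 and elp3 was 0.69 ± 0.43 (adjusted p = 0.597), where 0.100% did, and that for gcn5 and mst2 was 0.40 ± 0.43 (adjusted p = 0.721), where 0.883% did. None of the 3 passed in any alternative.

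**Figure D2:**
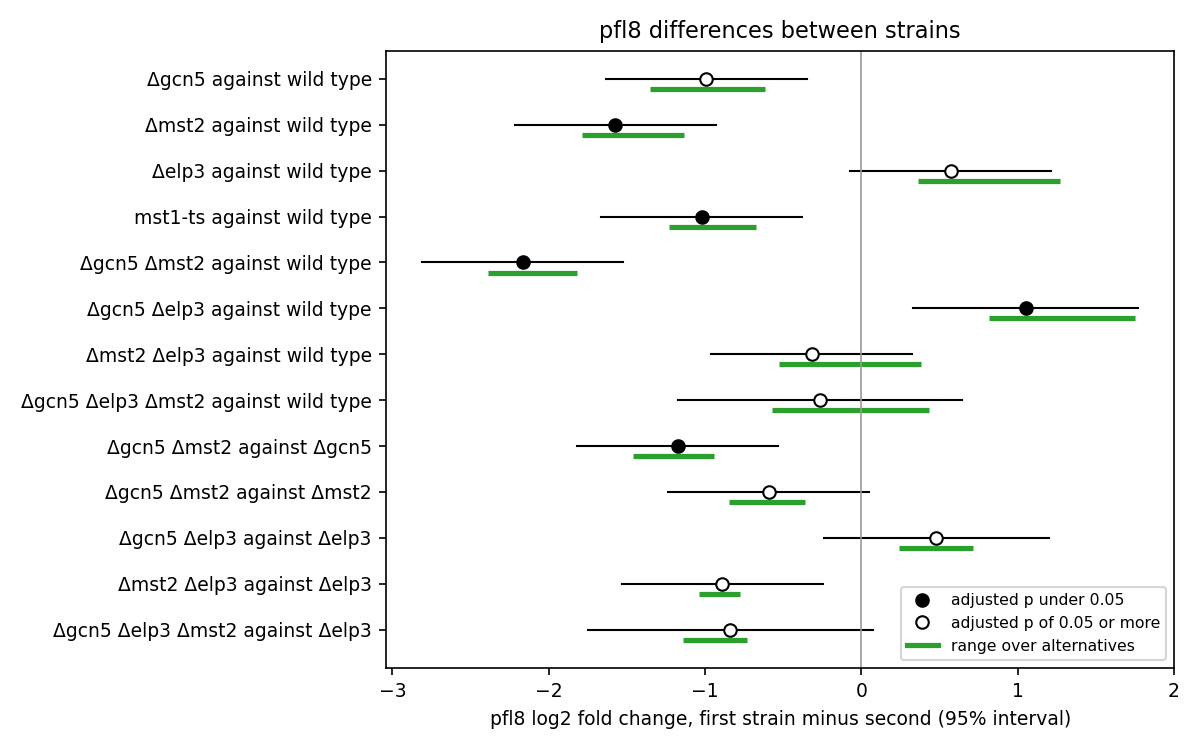
Log2 fold change of pfl8 (horizontal axis) in 13 comparisons of strains (vertical axis), with 95% intervals as black lines, filled points where the adjusted p is under 0.05, and the range over all alternatives as green bars. The change of -2.17 in Δgcn5 Δmst2 stands furthest from 0, and the green bars cross 0 only for Δmst2 Δelp3 and the triple mutant against wild type.

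Flocculation in fission yeast is set by transcription factors and kinases, and 13 of 18 such regulators on a list made for this comparison had a named probe set. The activator Mbx2, a MADS-box factor needed for flocculin expression, was higher in strains without elp3. Its level was 9.90, 9.53 and 9.39 in Δelp3, 9.72 and 9.50 in Δgcn5 Δelp3, 8.98, 9.12 and 9.03 in Δmst2 Δelp3 and 8.65 in the triple mutant, against 8.57, 8.31 and 7.38 in wild type. All of these lay above the highest wild-type library. The mbx2 level rose by 1.52 ± 0.27 in Δelp3 (adjusted p = 0.000775), by 1.52 ± 0.30 in Δgcn5 Δelp3 (adjusted p = 0.00172) and by 0.96 ± 0.27 in Δmst2 Δelp3 (adjusted p = 0.0169). With the date as a covariate it still rose in Δelp3 (2.01, adjusted p = 0.0341) and Δgcn5 Δelp3 (2.01, adjusted p = 0.0379), but not in Δmst2 Δelp3 (1.44, adjusted p = 0.116), where the call was also lost without wild-type replicate 3 (0.60, adjusted p = 0.0919) or Δmst2 Δelp3 replicate 2 (0.92, adjusted p = 0.0649). In Δmst2, where pfl8 fell with the labels as they stand, mbx2 was 6.91, 7.14 and 7.13, below every wild-type library. Its change of -1.03 ± 0.27 did not pass (adjusted p = 0.152), and that group held a library with an mst2 transcript. In the other strains with low pfl8, mbx2 was not separated from wild type, at -0.34 ± 0.27 in Δgcn5 Δmst2 (adjusted p = 0.377), 0.29 ± 0.27 in mst1-ts (adjusted p = 0.434) and -0.37 ± 0.27 in Δgcn5 (adjusted p = 0.844).

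The CSL family factors Cbf11 and Cbf12 are known to act in opposite ways on adhesion, with Cbf12 the one that promotes it. The cbf12 level was 8.20, 7.94 and 7.18 in Δgcn5 Δmst2 and 7.94 in the triple mutant, against 9.41, 9.84 and 10.35 in wild type. It fell by 2.09 ± 0.43 in Δgcn5 Δmst2 (adjusted p = 0.00240) and by 1.93 ± 0.61 in the triple mutant (adjusted p = 0.0489). The second call was kept in 16 of 35 alternatives, and among its losses were those without wild-type replicate 3 (-1.69, adjusted p = 0.113) and wild-type replicate 2 (-1.94, adjusted p = 0.0759) and that with the date as a covariate (-1.05, adjusted p = 0.609). The first was lost with arrays of 1 date (-1.80, adjusted p = 0.0659). So cbf12 and pfl8 both fell in Δgcn5 Δmst2, while in the triple mutant, whose cbf12 change depended on the date, pfl8 was near wild type. In every mutant the mean of cbf12 was below wild type, including those where pfl8 was higher. The cbf11 level moved the other way in the elp3 strains. It rose by 0.55 ± 0.13 in Δelp3 (adjusted p = 0.00664), 0.60 ± 0.15 in Δgcn5 Δelp3 (adjusted p = 0.00800) and 0.69 ± 0.13 in Δmst2 Δelp3 (adjusted p = 0.00146), and fell by 0.40 ± 0.13 in mst1-ts (adjusted p = 0.0236).

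Of the regulators known to oppose flocculation, lkh1, which encodes the LAMMER kinase, rose by 0.81 ± 0.19 in Δgcn5 Δelp3 (adjusted p = 0.00631), the strain with the highest pfl8, and by 0.83 ± 0.17 in Δmst2 Δelp3 (adjusted p = 0.00257). The corepressor gene tup11 fell by 0.44 ± 0.12 in Δgcn5 Δmst2 (adjusted p = 0.0106), where pfl8 was lowest, and rose by 0.43 ± 0.12 in Δmst2 Δelp3 (adjusted p = 0.0152). Its paralog tup12 passed in no strain. Among the others, srb11, the cyclin of the Mediator kinase module, fell by 0.54 ± 0.16 in mst1-ts (adjusted p = 0.0128). The forkhead factor gene sep1 rose by 0.61 ± 0.13 in Δgcn5 Δmst2 (adjusted p = 0.00270) and by 0.42 ± 0.13 in mst1-ts (adjusted p = 0.0161), and sre2, a membrane-bound transcription factor gene, rose by 0.54 ± 0.15 in mst1-ts (adjusted p = 0.0116).

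Counted over the 13 regulators, 2 rose and 0 fell in Δelp3, 3 rose and 0 fell in Δgcn5 Δelp3, 4 rose and 0 fell in Δmst2 Δelp3, 1 rose and 2 fell in Δgcn5 Δmst2, 2 rose and 3 fell in mst1-ts, 0 rose and 1 fell in the triple mutant, and none passed in Δgcn5 or Δmst2. Over all features, 13.0% rose in Δelp3, 12.5% in Δgcn5 Δelp3 and 12.7% in Δmst2 Δelp3, 13.6% rose and 11.3% fell in Δgcn5 Δmst2, 13.7% rose and 21.8% fell in mst1-ts, and 5.40% fell in the triple mutant. The counts in every strain but Δmst2 Δelp3 lay within 2 genes of those shares of 13 and are no result about the list. Their median change was 0.24 in Δelp3, 0.19 in Δgcn5 Δelp3 and 0.29 in Δmst2 Δelp3, where the median of all features was 0.02 in each. It was -0.10 in Δgcn5 Δmst2, beside -0.01 for all features, and 0.16 in mst1-ts, beside -0.07. Without the doubted libraries 4 rose in Δelp3, 4 in Δgcn5 Δelp3 and 5 in Δmst2 Δelp3, 1 rose and 0 fell in Δgcn5, 1 rose and 3 fell in Δgcn5 Δmst2, 2 rose and 4 fell in mst1-ts, and none passed in Δmst2. With the date as a covariate 1 rose in Δelp3, 1 in Δgcn5 Δelp3 and 0 in Δmst2 Δelp3. The 2 that were kept were those of mbx2. The shares of all features given above belong to the main fit. None is given without the doubted libraries or with the date, so the counts in those settings are no result about the list.

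**Figure D3:**
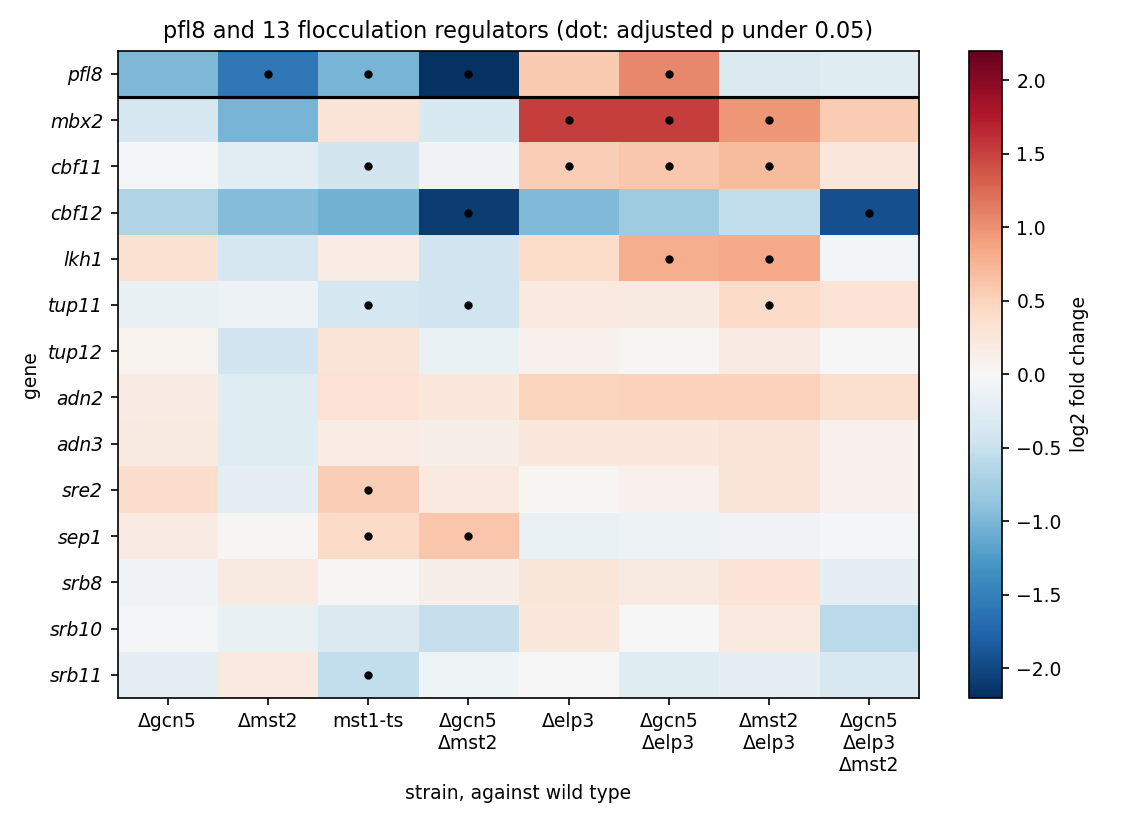
Log2 fold change (colour) of pfl8 and 13 flocculation regulators (rows) in 8 mutant strains against wild type (columns), with a dot where the adjusted p is under 0.05. The rows of pfl8 and mbx2 are both red in Δelp3, where pfl8 has no dot, and in Δgcn5 Δelp3, but in Δgcn5 Δmst2 pfl8 (-2.17) is matched in depth of blue by cbf12 (-2.09) and not by mbx2 (-0.34). Neither row follows pfl8 throughout. In Δmst2 Δelp3 mbx2 is at 0.96 and pfl8 at -0.32, and in the triple mutant cbf12 is at -1.93 and pfl8 at -0.27.

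Flocculins sit in a wall of α- and β-glucans, and 16 of 18 genes for glucan synthesis and remodelling had a named probe set. More of them were called in mst1-ts, where pfl8 fell, than in any other strain. There 7 of 16 rose and none fell, with a median of 0.29, beside 13.7% of all features that rose. The largest were gas5, a β-1,3-glucanosyltransferase gene, by 0.87 ± 0.13 (adjusted p = 9.9e-05), bgs2, a glucan synthase gene of spore walls, by 0.63 ± 0.21 (adjusted p = 0.0289), ags1, the main α-glucan synthase gene, by 0.59 ± 0.16 (adjusted p = 0.00678) and agn2, an α-glucanase gene, by 0.55 ± 0.20 (adjusted p = 0.0358). In Δgcn5 Δmst2, the strain with the lowest pfl8, bgs2 was the 1 of 16 that rose, by 0.97 ± 0.21 (adjusted p = 0.00345), beside 13.6% of all features, and without the doubted libraries 3 of 16 rose and 1 fell. In Δelp3, agn2 rose by 0.59 ± 0.20 (adjusted p = 0.0390) and exg1, a glucanase gene, fell by 0.38 ± 0.12 (adjusted p = 0.0328). In Δgcn5 Δelp3, exg1 fell by 0.45 ± 0.14 (adjusted p = 0.0249) and bgs4, an essential β-glucan synthase gene, by 0.38 ± 0.12 (adjusted p = 0.0256). In Δmst2 Δelp3, gas5 rose by 0.49 ± 0.13 (adjusted p = 0.0156), gas1 by 0.46 ± 0.15 (adjusted p = 0.0370) and bgs1 by 0.41 ± 0.12 (adjusted p = 0.0167), and in the triple mutant gas5 rose by 0.75 ± 0.19 (adjusted p = 0.0171). None of the 16 passed in Δgcn5 or Δmst2, and without the doubted libraries 1 fell in Δgcn5 and none passed in Δmst2. With the date as a covariate none of the 16 passed in any strain lacking elp3. No shares of all features are given without the doubted libraries or with the date, so the counts in those settings are no result about the list.

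Single libraries decided many of these smaller changes. Of 45 called changes of genes other than pfl8 named here, 22 were kept whichever 1 array was left out and 23 were lost without at least 1. Leaving out wild-type replicate 1, 2 or 3 lost 11, 12 and 12 calls, and leaving out Δgcn5 Δelp3 replicate 1 or 2 lost 6 and 7. The 22 kept include mbx2 in Δelp3 and Δgcn5 Δelp3, cbf12, bgs2 and sep1 in Δgcn5 Δmst2, ags1 and gas5 in mst1-ts, lkh1 in Δmst2 Δelp3 and cbf11 in Δelp3 and Δmst2 Δelp3. The calls given for agn2, exg1, bgs1, bgs4 and gas1 were among the 23. No call changed sign.

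A second kind of adhesion, between mating partners, uses the sexual agglutinins, Map4 of P cells and Mam3 of M cells. Both genes rose in 2 of the strains where pfl8 fell, beside 13.6% of all features that rose in Δgcn5 Δmst2 and 13.7% in mst1-ts. The map4 level rose by 2.64 ± 0.15 in Δgcn5 Δmst2 (adjusted p = 1.8e-09) and by 0.58 ± 0.15 in mst1-ts (adjusted p = 0.00675). The mam3 level rose by 1.38 ± 0.38 in Δgcn5 Δmst2 (adjusted p = 0.0136) and by 1.51 ± 0.38 in mst1-ts (adjusted p = 0.00527), and the first of these calls was lost with arrays of 1 date (1.33, adjusted p = 0.116). In these 2 strains the adhesion genes of mating and the flocculin gene thus moved in opposite directions. In Δmst2, where pfl8 also fell with the labels as they stand, map4 was at -0.23 ± 0.15 (adjusted p = 0.427) and mam3 at 0.21 ± 0.38 (adjusted p = 0.773). In Δgcn5, map4 was at 0.07 ± 0.15 (adjusted p = 0.965) and mam3 at 1.26 ± 0.38 (adjusted p = 0.491). Without the doubted libraries 1 of the 2 rose there, a setting for which no share of all features is given. The agglutinins passed in no strain lacking elp3.

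A culture can hold cells of the other mating type, so the markers of M and P cells were summed for each library. The 6 M-cell markers summed to a log2 intensity of 10.87 to 14.97 in Δgcn5 and 10.85 to 14.33 in Δmst2, against 10.70 to 11.03 in wild type. The Δgcn5 strain is of the mating type of M cells, and the wide ranges came from the libraries that went against their labels, with mfm1 at 10.26, 6.46 and 11.21 in Δgcn5 and 6.20, 9.48 and 6.39 in Δmst2, against 6.11 to 6.47 in wild type. In Δgcn5, the library with low mfm1 had pfl8 at 9.52, beside 9.51 and 8.65 in those with high mfm1. In Δmst2, the library with high mfm1 had the lowest pfl8 of that group, at 8.13. None of the 6 M-cell markers passed in Δgcn5 or Δmst2, and mam3 alone did in mst1-ts and Δgcn5 Δmst2. The 3 P-cell markers summed to 14.35 to 14.84 in Δgcn5 Δmst2 and 12.29 to 12.33 in mst1-ts, against 10.65 to 10.95 in wild type, and all 3 rose in both strains, beside 13.6% of all features that rose in Δgcn5 Δmst2 and 13.7% in mst1-ts. Of the 3, 1 rose in each of Δelp3, Δgcn5 Δelp3 and Δmst2 Δelp3, beside 13.0%, 12.5% and 12.7% of all features. In the triple mutant 2 rose, beside 6.36% of all features, and none passed in Δgcn5 or Δmst2. The M-cell sums were 11.53 to 11.74 in Δgcn5 Δmst2 and 11.66 to 11.89 in mst1-ts. The triple mutant had 13.33 for M and 12.82 for P, with pfl8 near wild type, and the other strains without elp3 had 10.88 to 11.41 for M and 11.06 to 11.39 for P. The part of mating type in the pfl8 differences was not tested. Since the arrays measured RNA of whole cultures, fewer cells with the transcript and less of it per cell cannot be told apart.

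The named genes whose group means followed those of pfl8 most closely were ipk1, skb15 and but2, with Pearson's r of 0.95, 0.92 and 0.92 over the 9 group means and 0.85, 0.73 and 0.71 over the 24 arrays, chosen from 2898 named genes. These correlations are descriptions, and the points share arrays and dates. The gene ipk1 encodes the kinase that adds the last phosphate to make inositol hexakisphosphate. It was the only one of the 3 with a range near that of pfl8. It was 10.69, 10.32 and 10.24 in Δgcn5 Δmst2 and 12.66 and 12.85 in Δgcn5 Δelp3, against 11.25, 11.18 and 12.15 in wild type. It fell by 1.11 ± 0.29 in Δgcn5 Δmst2 (adjusted p = 0.0106) and rose by 1.23 ± 0.33 in Δgcn5 Δelp3 (adjusted p = 0.0125), and did not pass in the other 6 strains. The fall was lost without wild-type replicate 3 (-0.80, adjusted p = 0.0547) and with arrays of 1 date (-1.02, adjusted p = 0.114). The rise was lost without Δgcn5 Δelp3 replicate 1 (1.33, adjusted p = 0.0678) or replicate 2 (1.13, adjusted p = 0.106), with the date as a covariate (adjusted p = 0.181) and with the compared groups only (adjusted p = 0.0519). Its change in the triple mutant was 0.62 ± 0.41 (adjusted p = 0.375), where that of pfl8 was -0.27. The gene skb15, which encodes a WD repeat protein, had group means from 11.01 to 11.76, and but2 from 13.97 to 14.35, and neither passed in any comparison with wild type.

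**Figure D4:**
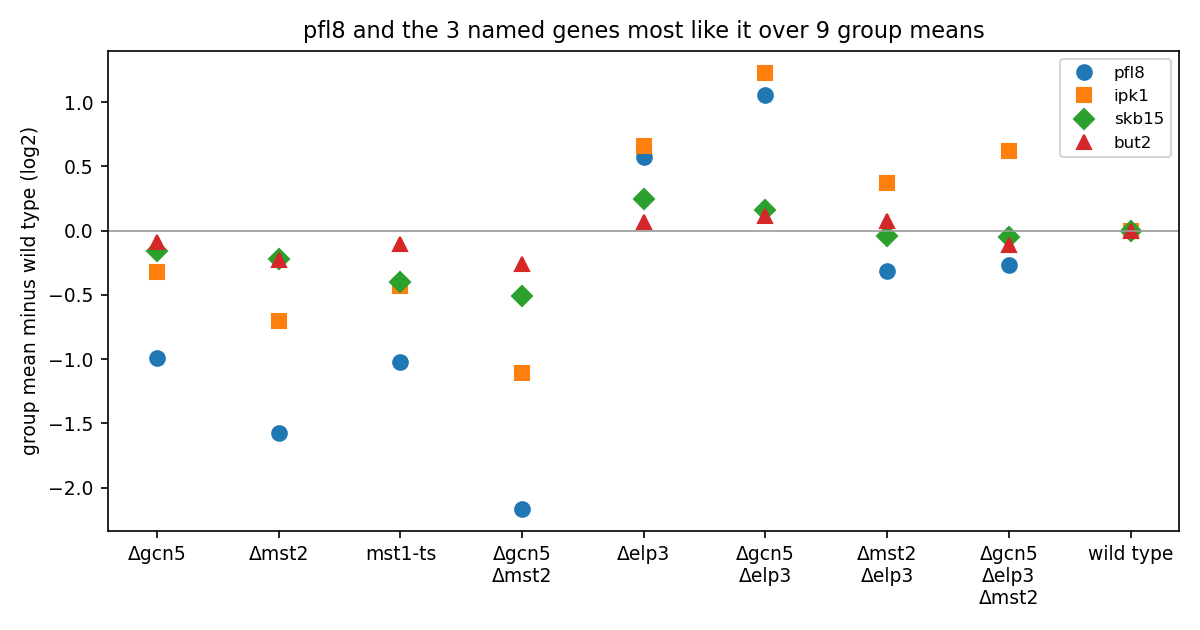
Group mean minus the wild-type mean (vertical axis, log2 units) of pfl8, ipk1, skb15 and but2 in the 8 mutant strains and, at the right, wild type (horizontal axis). The points of ipk1 follow those of pfl8 over a narrower range below 0, from -1.11 against -2.17 in Δgcn5 Δmst2, and skb15 and but2 stay within about 0.51 of wild type.

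The gene pfl8 lies near an end of chromosome I, as the 33rd of 2333 protein-coding genes in RefSeq's order, and only 5 genes between it and that end had a named probe set. Among its nearest neighbours with a named probe set, the adjacent gene changed against it where both passed. On the side of the chromosome end these were isp3, the next gene, which encodes a protein of the spore surface, and str3, 3 genes away, a transporter gene of iron uptake. On the other side they were mfs2, a membrane transporter gene 8 genes away, and adh4, an alcohol dehydrogenase gene 26 genes away. Genes in between can be measured by probe sets without a name, which were not assigned to genes here. In mst1-ts, where pfl8 fell, isp3 rose by 5.36 ± 0.36 (adjusted p = 2.7e-09) and str3 by 3.48 ± 0.62 (adjusted p = 0.000357). In Δgcn5 Δmst2, isp3 rose by 2.18 ± 0.36 (adjusted p = 0.000418) and adh4 fell by 0.97 ± 0.24 (adjusted p = 0.00659), while mfs2 was at -0.83 ± 0.37 (adjusted p = 0.111). So isp3 changed in the direction opposite to pfl8 in both strains, and adh4 in the same direction in Δgcn5 Δmst2.

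In Δmst2 none of the 4 neighbours passed, with adjusted p between 0.352 and 0.960. In Δelp3, isp3 rose by 1.14 ± 0.36 (adjusted p = 0.0319) and mfs2 by 1.08 ± 0.37 (adjusted p = 0.0464). The mfs2 call was lost without any 1 of its wild-type or Δelp3 libraries, and the isp3 call without any of these but Δelp3 replicate 3. Neither was called with the date as a covariate (adjusted p = 0.409 for mfs2 and 0.137 for isp3). In Δgcn5 Δelp3, where pfl8 rose, none of the 4 passed, with adjusted p between 0.307 and 0.606. In Δmst2 Δelp3, mfs2 rose by 1.64 ± 0.37 (adjusted p = 0.00515; 0.188 with the date). In the triple mutant, str3 rose by 7.18 ± 0.87 (adjusted p = 5.2e-05) and adh4 fell by 1.52 ± 0.33 (adjusted p = 0.00630), beside a pfl8 change of -0.27. With the date as a covariate the str3 rise was called and the adh4 fall was not (-0.92, adjusted p = 0.319). The adh4 fall in Δgcn5 Δmst2 was lost with arrays of 1 date (-0.77, adjusted p = 0.115). No strain had all 5 genes changed in 1 direction by the test.

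**Figure D5:**
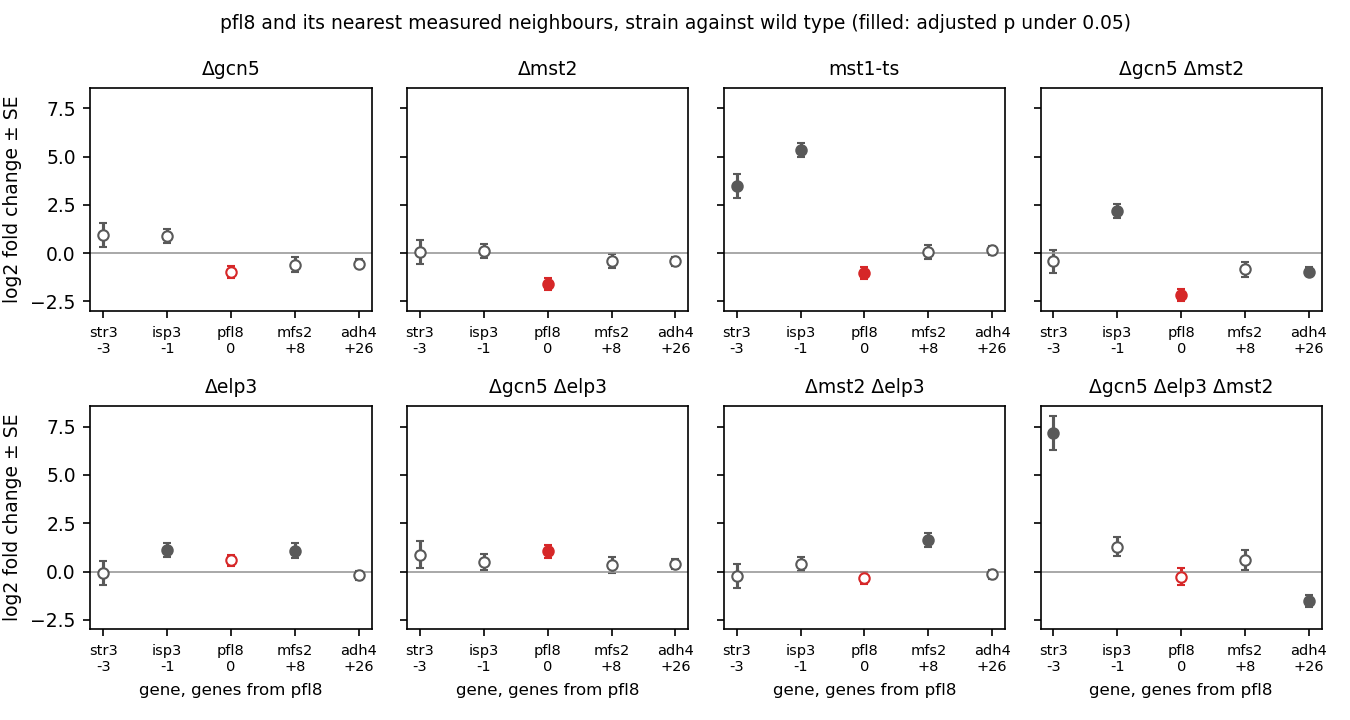
Log2 fold change ± SE (vertical axes) of pfl8 in red and its 4 nearest neighbours with a named probe set, in each mutant against wild type. Genes stand in gene order (horizontal axes, with the number of genes from pfl8), with filled points where the adjusted p is under 0.05. The adjacent gene isp3 is at 5.36 in mst1-ts and 2.18 in Δgcn5 Δmst2, where pfl8 is at -1.02 and -2.17.

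Because the platform names the probe set fta5, the 6 other fta genes, whose products are centromere proteins, were looked at after their values were seen, with no test on the group. In Δgcn5 Δmst2 their changes ran from -0.47 to -0.13, and in Δgcn5 Δelp3 from -0.49 to 0.49, beside the pfl8 changes of -2.17 and 1.05. In mst1-ts they ran from -0.81 to 0.18, beside a pfl8 change of -1.02, and in Δgcn5 from -0.30 to 0.12. In Δmst2 they ran from -0.01 to 0.59, and none of the 6 had a change as low as that of pfl8 in any strain that kept elp3.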

How the data were processed

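RNA of 24 cultures was hybridised to Affymetrix arrays, 1 per culture. The authors deposited 1 log2 intensity for each probe set and array, from RMA, which corrects background, normalizes by quantiles and summarises probes, and they used limma, with tool versions not given in the sources used here. Values ran from 4.85 to 15.35, array medians from 10.99 to 11.08, and no value was missing. RMA equalises arrays, so a change shared by most genes cannot be seen. The number of arrays per group limits the precision.

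The 5028 probe sets were reduced by 29 controls and by 18 whose gene had a brighter probe set, to 4981 features, 2899 of them named. Symbols were updated through gene identifiers with RefSeq (ASM294v3; 2914 found, 113 updated), used for names and gene order only, since the array's probe sets were not placed on that build. Sequences are not printed, as no sequence table was used here.

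A model of group means over all 24 arrays was fitted by limma 3.58.1 under R 4.3.3 (15 residual degrees of freedom), and 16 contrasts were tested, two-sided, with adjustment over all features. The script was tested on simulated data. The alternatives were a replicate block, leaving out doubted libraries, the date as a covariate or 1 date only, the compared groups only, other normalizations, weights, a variance trend, filters, other thresholds and leaving out each of 24 arrays. P-values measure the spread between libraries of the same label, pooled over the groups with more than 1 array. That spread takes in the libraries whose markers went against their labels and, in Δgcn5 Δmst2, the 2 dates. The genes named were pfl8, the 3 named genes most like it and the 2 nearest genes with a named probe set on each side. To these came the 4 largest passing genes of each list and comparison with wild type at most. The members and all lists were chosen with earlier results of these data known. One gene list is not reported here.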

Additional observations from a re-analysis of the deposited data

Results flagged for a closer look

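The loss of gcn5 went with opposite changes of pfl8 in the 2 backgrounds. Every Δgcn5 library was below the wild-type mean (-0.99) and both Δgcn5 Δelp3 libraries were above the Δelp3 mean (0.48). The difference of the 2 changes was 1.47 ± 0.46 (SE), with a 95% interval of 0.51 to 2.44, and it did not pass in limma (adjusted p = 0.490). Over the alternatives it lay between 1.04 and 1.83, with adjusted p from 0.0845 to 0.999. Each background was measured on its own date. In a further background without elp3, the triple mutant, with 1 array, was 0.05 above Δmst2 Δelp3. The Δgcn5 arm held a library with a gcn5 transcript and was of the other mating type, and the difference without the doubted libraries was 1.62 (adjusted p = 0.143); the part of mating type was not tested.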

How the results depend on the processing

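Of 584 values of pfl8 under the alternatives, 5 changed sign. The fall in Δgcn5 Δmst2 kept its direction and call in each of its 37 alternatives. The replicate block changed no pfl8 call; with it the change was -1.57 in Δmst2 (adjusted p = 0.00724) and 0.97 in Δgcn5 Δelp3 (adjusted p = 0.0227), and it lost 2 of the 45 calls of other genes. The replicate numbers did not pair the samples: deviations of same-numbered libraries correlated at a median of -0.01 (77 pairs, -0.70 to 0.56), and those of differently numbered ones at 0.00 (154 pairs). In what follows, the number called of the 1 flocculin with a named probe set is 1 where a call was made and 0 where it was lost, and the causes were not tested. Without the doubted libraries, Δgcn5 was called (-1.14) and so was Δgcn5 Δmst2 against Δmst2 (-0.85), while Δmst2 (-1.32) and Δgcn5 Δmst2 against Δgcn5 (-1.03) were lost. With wild-type replicate 2 left out too, Δgcn5 (-1.35) and Δgcn5 Δmst2 against Δmst2 (-0.85) were called, and Δgcn5 Δelp3 (0.84) and Δgcn5 Δmst2 against Δgcn5 (-1.03) were lost. With the date as a covariate, Δgcn5 Δelp3 (1.75) and Δgcn5 Δmst2 against Δgcn5 (-0.94) were lost, and Δmst2 Δelp3 (0.38) and the triple mutant (0.43) changed sign. With arrays of 1 date, Δmst2 (-1.57) and Δgcn5 Δmst2 against Δgcn5 (-0.94) were lost, and Δmst2 Δelp3 (-0.89) and the triple mutant (-0.84) against Δelp3 were called. With the compared groups only, which leaves fewer arrays, Δmst2 (-1.57), Δgcn5 Δelp3 (1.05) and Δgcn5 Δmst2 against Δgcn5 (-1.17) were lost, and Δmst2 Δelp3 against Δelp3 (-0.89) was called. Quantile normalization lost Δmst2 (-1.53). Array weights lost Δmst2 (-1.13), called Δelp3 (0.82), Δgcn5 Δmst2 against Δmst2 (-0.82) and Δmst2 Δelp3 against Δelp3 (-0.97), and changed the sign of the interaction of gcn5 and mst2 (-0.20). Adding the fold threshold, with or without adjustment of p, lost by construction the calls of Δmst2 (-1.57), mst1-ts (-1.02), Δgcn5 Δelp3 (1.05) and Δgcn5 Δmst2 against Δgcn5 (-1.17). Median centring, an intensity trend and all probe sets kept changed no pfl8 call. With dim features left out pfl8 had no value, since it was itself below the first quartile.

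Leaving out each array in turn, the change in Δgcn5 ran from -1.20 to -0.64, in Δmst2 from -1.78 to -1.23, in mst1-ts from -1.23 to -0.67, in Δgcn5 Δmst2 from -2.39 to -1.82, in Δelp3 from 0.36 to 0.92, in Δgcn5 Δelp3 from 0.82 to 1.40, in Δmst2 Δelp3 from -0.53 to 0.031 and in the triple mutant from -0.48 to 0.082, with the signs of the last 2 turned without wild-type replicate 1. It ran from -1.46 to -0.94 for Δgcn5 Δmst2 against Δgcn5 and from -0.85 to -0.36 against Δmst2. Over these fits the flocculin called ranged from 0 to 1 in Δmst2, Δelp3, mst1-ts, Δgcn5 Δelp3 and both comparisons of Δgcn5 Δmst2 with a single mutant. With at most 3 arrays per strain and a dim probe set, the 95% intervals of pfl8 spanned more than 1 log2 unit in every comparison.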
